A study of Mus musculus with 16 samples.

Results

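Potassium channel genes were followed across 16 RNA-seq libraries of C2C12, a line of mouse myoblasts whose cells fuse into multinucleate myotubes in low serum. The genes were chosen by symbol and by counts: every protein-coding gene named Kcn with at least 10 counts in 2 or more of the 16 libraries. Of 94 protein-coding genes with such a symbol, 30 met the count minimum, against 13303 protein-coding genes of all kinds that met it and 49585 genes in the tables. They comprised 10 voltage-gated subunits, 1 silent modifier subunit, 4 calcium-activated channels, 4 inward rectifiers, 4 channels of the 2-pore class and 7 auxiliary subunits.

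The first experiment held WT cells and AMPK-KO cells, in which CRISPR/Cas9 was aimed at *Prkaa1* and *Prkaa2* (the catalytic α subunits of AMPK), at d0 (before differentiation) and d8 (differentiation medium), with 2 libraries for each genotype and day. The second held TET2-WT and TET2-S97E cells at d0. Both lines lacked AMPK and carried a FLAG-BirA tag on TET2, a dioxygenase that oxidizes methylated cytosine, and TET2-S97E also carried glutamate in place of the serine that AMPK phosphorylates. Each TET2 genotype was represented by 2 clones with 2 libraries each, so that genotype and clone were partly the same thing. The labels do not say which AMPK-KO line gave each library, nor whether replicates were separate cultures, and p-values therefore measure only the spread between these libraries.

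In the order of the replicate numbers, totals were 20484982 and 18776790 counts for WT d0, 19319119 and 20903834 for AMPK-KO d0, 17883417 and 21396328 for WT d8, and 24663079 and 20925176 for AMPK-KO d8. TET2 libraries held between 19801909 and 37790358. Levels are given as CPM (count share scaled to a common library size, with TMM factors from each table on its own), so levels of the 2 experiments are set side by side without a test. Differences were tested with the quasi-likelihood test of edgeR, whose adjusted p (Benjamini-Hochberg over all genes tested) had to lie under 0.05 for a call. Changes are given on the log2 scale with their SE from that fit. A library at the floor of 3 counts stood at 0.0791 to 0.165 CPM. A counting interval of a ratio covers counting error alone, not the spread between libraries or clones. For the edited genes at d0, WT libraries gave 3287 and 2925 counts of *Prkaa1* and AMPK-KO libraries 1522 and 1669, while *Prkaa2* gave 35 and 33 against 4 and 9. These counts cover whole genes and do not show the edited exons.

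Potassium channels let potassium ions leave or enter the cell along their gradient and so set the resting potential and end action potentials. Pore-forming α subunits of the voltage-gated, calcium-activated, inward rectifier and 2-pore classes assemble with auxiliary subunits that change gating or traffic. In myoblasts, channels that make the membrane potential more negative, inward rectifiers of the Kir2 family among them, are known to precede fusion into myotubes.

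The 16 libraries expressed the muscle markers *Myod1*, *Myf5*, *Des* and *Cdh15*, whereas the neuronal marker *Rbfox3*, the Schwann cell marker *Sox10* and the leukocyte marker *Ptprc* lay at or under 0.0551 CPM in every library. *Pax7*, which marks muscle precursors, gave 167 and 169 counts in the WT d0 libraries but 0 and 1 in the AMPK-KO d0 libraries. Of the muscle markers, the summed level of 7 myotube genes (*Myog*, *Myh3*, *Ckm*, *Acta1*, *Tnnt3*, *Mymk*, *Ttn*) was 204 and 144 CPM in WT and 21.4 and 18.0 CPM in AMPK-KO cells at d0. At d8 the same sum was 5146 and 7203 CPM in WT but 1728 and 9913 CPM in AMPK-KO cells. The higher sum of AMPK-KO d8 replicate 2 held 6426 CPM of *Acta1*. In that library *Acta1*, *Ckm* and *Tnnt3* lay above both WT d8 libraries, and *Myh3* and *Ttn* lay between them. *Myog* (192 against 255 and 429 CPM) and *Mymk* (398 against 416 and 538 CPM) lay below both. In TET2-WT cells it ran from 14.5 to 285 CPM and in TET2-S97E cells from 370 to 4999 CPM. *Acta1* was the most abundant of these 7 genes in all d8 and TET2-S97E libraries. Of 4 fibroblast markers, *Pdgfra* was the most abundant in every library and *Tcf21* was at 0 in all of them, and the summed level ran from 13.6 to 53.6 CPM in the first experiment and from 43.2 to 134 CPM in the second. The sum of 3 smooth muscle markers, nearly all of it *Acta2*, ran from 371 to 700 CPM in TET2-WT and from 1013 to 2031 CPM in TET2-S97E libraries. In the first experiment the same sum was 2333 and 752 CPM in WT d0 and 2162 and 953 CPM in AMPK-KO d0. It was 1886 and 1232 CPM in WT d8 and 2656 and 1866 CPM in AMPK-KO d8, so these groups overlapped. Myotube markers thus moved with day and, at d0 in both experiments, with genotype, while their sums overlapped between genotypes at d8. Smooth muscle markers differed between the TET2 genotypes alone. The part of these markers in the results on potassium channels was not tested. In bulk RNA, fewer cells of a type and less RNA per cell cannot be told apart.

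The count minimum itself favours a group in some members. Without the WT libraries, 8 members would not have met it, among them *Kcna3*, *Kcnf1*, *Kcnmb2*, *Kcnmb4*, *Kcnn3*, *Kcnc1* and *Kcnk13*. *Kcna3* needed the WT d0 libraries and *Kcnc1* and *Kcnk13* those of WT d8. A difference in favour of those groups was built into the choice of these genes, so it is described without a p-value of its own. Where edgeR calls of these comparisons are first counted, these genes are included and the number without them follows. A call of such a gene is no test of it. Just inside the minimum lay *Kcnq1*, *Kcna3* and *Kcnc1*, whose second highest counts were 16, 17 and 17, and genes just outside included *Kcnk7* and *Kcnh7* at 9 and 8. Of the 64 genes outside, 14 had no count in any library. Among genes with a known place in muscle, *Kcnj11* and *Kcnj8*, the pores of ATP-sensitive potassium channels, never exceeded 8 and 3 counts, and *Kcnn2*, *Kcnq5*, *Kcnc4* and *Kcna7* never exceeded 2. *Kcne3* was listed at 0 in all libraries.

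**Figure D1:**
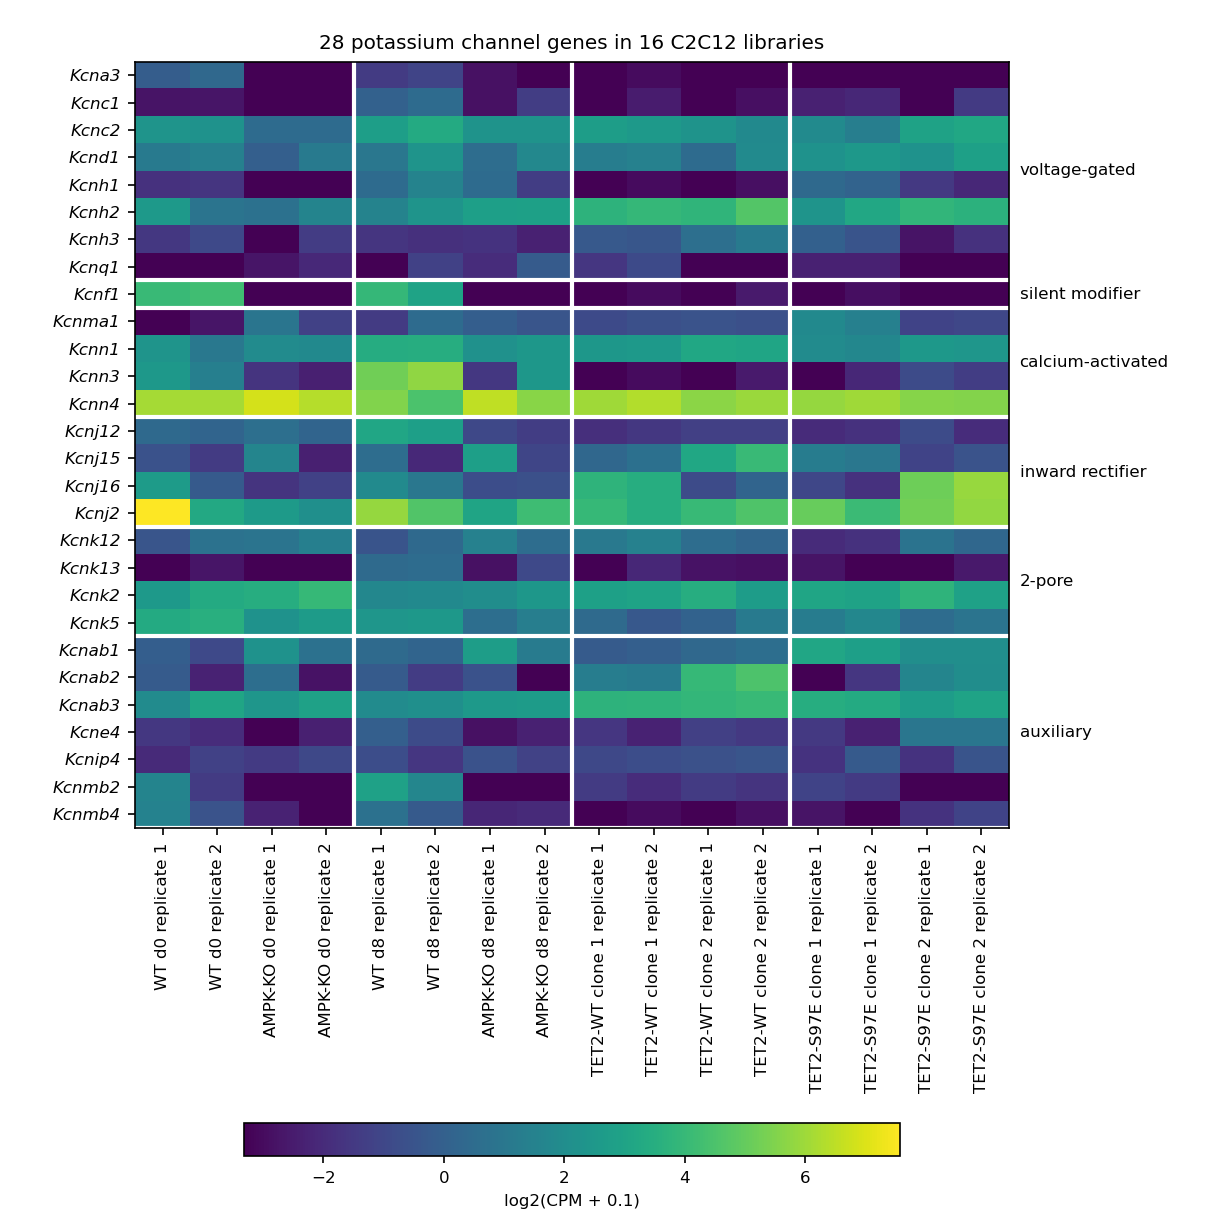
Levels of 28 of the 30 potassium channel genes (rows, by class) in the 16 libraries (columns), as log2(CPM + 0.1). *Kcnn4* is bright in every column, *Kcnn3* and *Kcnj12* are brightest in the WT d8 columns, and *Kcnf1* is bright in the 4 WT columns alone.

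*Kcnn4*, the intermediate-conductance calcium-activated channel of many dividing cells, was abundant in all libraries. It had 481 to 3060 counts and was the member with the highest CPM in 12 of the 16 libraries. Per kilobase of merged exon, the levels in WT d0 were highest for *Kcnj2* (18.4 ± 23.5 CPM per kb, SD, n = 2), *Kcnn4* (13.5 ± 0.0508), *Kcnf1* (3.69 ± 0.244), *Kcnk5* (3.14 ± 0.334) and *Kcnab3* (2.11 ± 1.14). *Kcnj2* owed its place to 1 library, and neither *Kcnj2* and *Kcnn4* nor *Kcnk5* and *Kcnab3* were separated beyond their spread. In WT d8, *Kcnj2* (7.63 ± 4.39 CPM per kb), *Kcnn4* (6.68 ± 3.21) and *Kcnn3* (4.34 ± 1.17) overlapped. In AMPK-KO cells *Kcnn4* led at both days, with 19.4 ± 4.53 CPM per kb at d0 and 14.0 ± 5.88 at d8.

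Summed over the 30 members, the level was 344 and 154 CPM in WT and 165 and 134 CPM in AMPK-KO cells at d0. At d8 it was 298 and 267 CPM in WT and 153 and 123 CPM in AMPK-KO cells. WT d0 replicate 1 stood apart, and *Kcnj2* made up 55.5% of its sum. That library had 3954 counts of *Kcnj2* against 175 in WT d0 replicate 2, and it was also high in *Kcnj16* (128 against 14 counts), *Kcnmb2* (60 against 5) and *Kcnmb4* (57 against 11). Its share of mitochondrial counts was 1.36% against 0.568%, and *Acta2* stood at 2327 against 750 CPM. The part of these differences in the results was not tested.

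**Figure D2:**
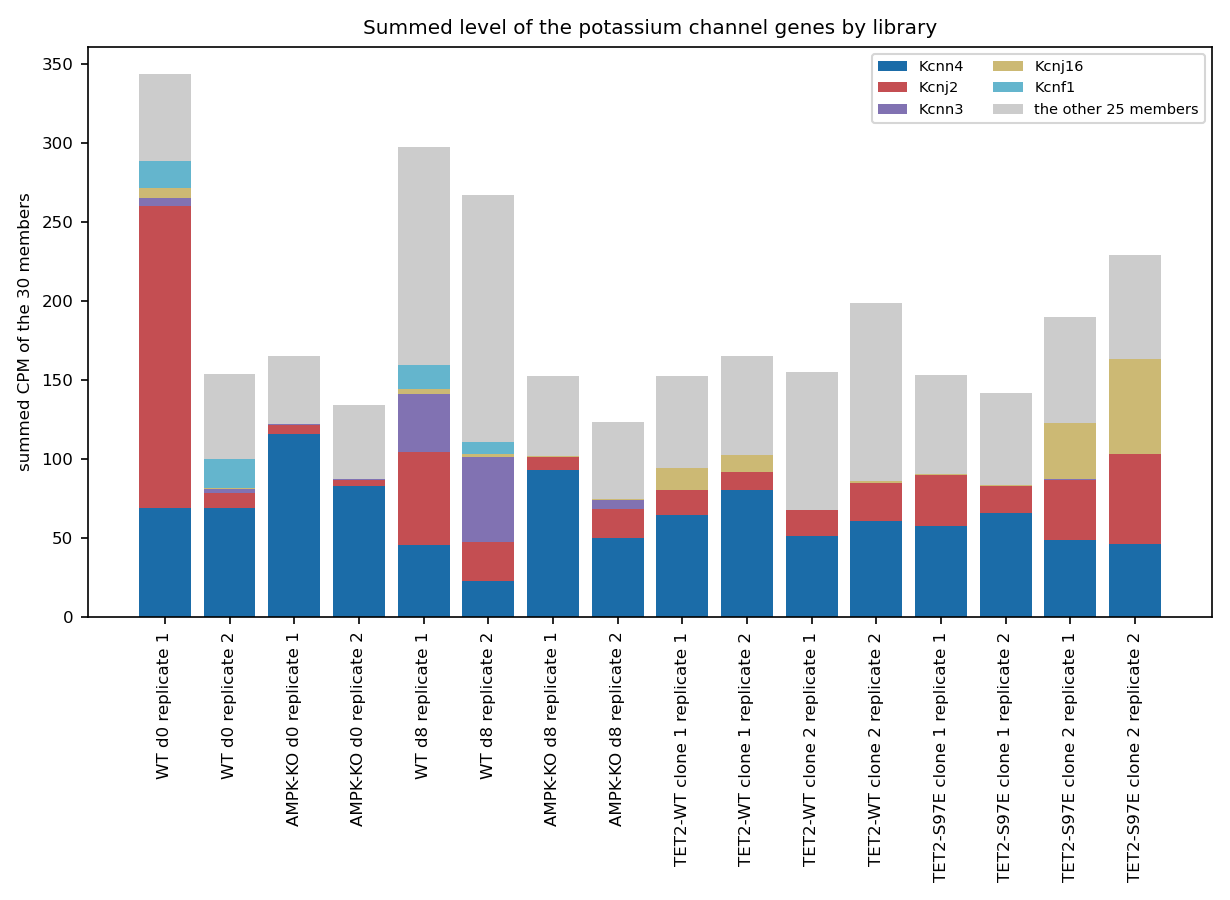
Summed CPM of the 30 potassium channel genes in each library (bars from 0), divided into 5 prominent members and the other 25. WT d0 replicate 1 reaches 344 CPM through *Kcnj2*, and the WT d8 bars of 298 and 267 CPM hold *Kcnn3* segments that are thin or absent in the other libraries.

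The first comparison asked which potassium channel genes differ between WT and AMPK-KO myoblasts at d0. *Kcnf1*, a silent subunit that forms no channel alone and modifies other voltage-gated channels, lost all counts, *Kcna3*, a voltage-gated channel of the Shaker family, fell to 0 as well, and *Kcnc2*, a fast voltage-gated channel of the Shaw family, fell from a mean of 4.79 to 1.31 CPM. These 3 of 27 members tested were lower and 0 were higher in edgeR at an adjusted p under 0.05, where 2.83% of all 14329 genes were lower and 0.698% were higher. Of the 27, the count minimum favours 8 in WT cells, *Kcnf1* and *Kcna3* among them, and of the other 19 members 1 was called. At an unadjusted p under 0.05, 6 of these 19 were lower and 2 were higher, beside 1844 and 1151 of all genes tested. The median log2 fold change was 0.088 over the 19 and −0.00102 over all genes tested. With the favoured members included, 4 genes at 0 in AMPK-KO set to their bounds and *Kcnc1* and *Kcnk13* left out for want of counts in both groups, it was −0.65.

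*Kcnf1* (chr12:17172100-17176888, minus strand, GRCm38) was read 349 and 341 times in the WT d0 libraries and 275 and 170 times at d8. All 4 AMPK-KO libraries had 0 counts. The genotypes did not overlap on either day. With AMPK-KO at the floor of 3 counts per library, *Kcnf1* was at least 119-fold lower at d0 and at least 86.3-fold lower at d8. All 8 TET2 libraries, which lack AMPK too, had 0 to 2 counts of *Kcnf1*, in TET2-S97E as in TET2-WT cells. *Kcna3* (chr3:107036169-107038070, plus strand) fell from 17 and 22 counts in the WT d0 libraries to 0 in both AMPK-KO d0 libraries, at least 6.77-fold lower. At d8 its counts were 5 and 8 against 1 and 0, a ratio of 14.9 (95% counting interval 2.23 to 631), and in the TET2 libraries they were 0 or 1.

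The start regions of these 2 genes are shown because both genes were at 0 in AMPK-KO myoblasts while the sequences around their starts differ in CG dinucleotides, the sites that DNA methylation and TET enzymes act on. The sequences cover 250 bases before and 50 after the start, 5′ to 3′ on the strand of the gene, from the RefSeq promoter table on GRCm38.p6, with each CG in capitals. *Kcnf1* lies at chr12:17176839-17177138 (minus strand) and *Kcna3* at chr3:107035912-107036211 (plus strand).
Kcnf1: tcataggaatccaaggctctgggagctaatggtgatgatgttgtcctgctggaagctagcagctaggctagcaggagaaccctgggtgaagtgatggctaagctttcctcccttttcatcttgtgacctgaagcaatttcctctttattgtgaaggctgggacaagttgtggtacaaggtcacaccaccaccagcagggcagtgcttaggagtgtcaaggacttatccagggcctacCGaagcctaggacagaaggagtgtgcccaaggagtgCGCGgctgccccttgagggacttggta
Kcna3: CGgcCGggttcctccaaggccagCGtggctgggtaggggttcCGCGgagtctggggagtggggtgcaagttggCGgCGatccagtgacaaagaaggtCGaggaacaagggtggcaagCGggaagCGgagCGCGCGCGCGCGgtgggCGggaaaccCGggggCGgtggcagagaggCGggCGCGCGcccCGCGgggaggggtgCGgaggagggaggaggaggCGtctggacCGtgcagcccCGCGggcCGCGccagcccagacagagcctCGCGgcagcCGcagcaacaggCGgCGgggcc
The *Kcnf1* window held 3 CG and the *Kcna3* window 37 CG. At least 3 CG were found in 76.7% of all 32841 promoters of this length and at least 37 in 5.58%, with a median of 7. Of the 30 members, 24 had an entry in the table, and the median of the windows nearest to their annotated starts was 10 CG, ranging from 2 in *Kcnj15* to 48 in *Kcnmb4*. CG content and counts are set side by side here, and methylation was not analysed.

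*Kcnc2* (chr10:112271121-112467024, plus strand) had 4.92 and 4.66 CPM in WT and 1.31 and 1.31 CPM in AMPK-KO cells at d0. The replicates of each group almost coincided, and the log2 fold change was −1.87 (SE 0.317, edgeR adjusted p = 0.0273). Unlike *Kcnf1*, *Kcnc2* stayed expressed in all AMPK-KO libraries.

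Other members had lower values in AMPK-KO myoblasts without passing the threshold in the edgeR fit without a replicate block. *Kcnn3* stood at 5.55 and 2.49 CPM in WT against 0.209 and 0.0935 CPM. *Kcnmb4*, a β subunit of the large-conductance calcium-activated channel, had 57 and 11 counts against 2 and 0 (ratio 35.1, 95% counting interval 9.36 to 296). The log2 change of *Kcnmb4* was −3.43 without WT d0 replicate 1 and −5.62 without WT d0 replicate 2, so its size depended on the library. With a replicate block *Kcnmb4*, which the count minimum favours, was called. *Kcnj2*, the main Kir2 channel of muscle, stood at 191 and 9.49 CPM against 6.12 and 4.25 CPM, with a log2 fold change of −4.27 (SE 1.28, edgeR adjusted p = 0.124). Without WT d0 replicate 1 that change was −0.88 (adjusted p = 0.554), and without WT d0 replicate 2 it was −5.20 (edgeR adjusted p = 0.0191), so 1 library decided its size. *Kcnma1*, the pore of the large-conductance calcium-activated channel, went the other way, with 34 and 7 counts against 0 and 1 in WT (ratio 39.7, 95% counting interval 6.73 to 1604, edgeR adjusted p = 0.121).

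The calls at d0 depended on single libraries. Leaving out 1 of the 8 libraries gave 0 to 5 members called, with 0 without AMPK-KO d0 replicate 1, where 13 genes of all those tested were still lower. *Kcnc2* was called in 7 of 14 alternative fits, and leaving out any WT library or either AMPK-KO d0 library ended its call.

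**Figure D3:**
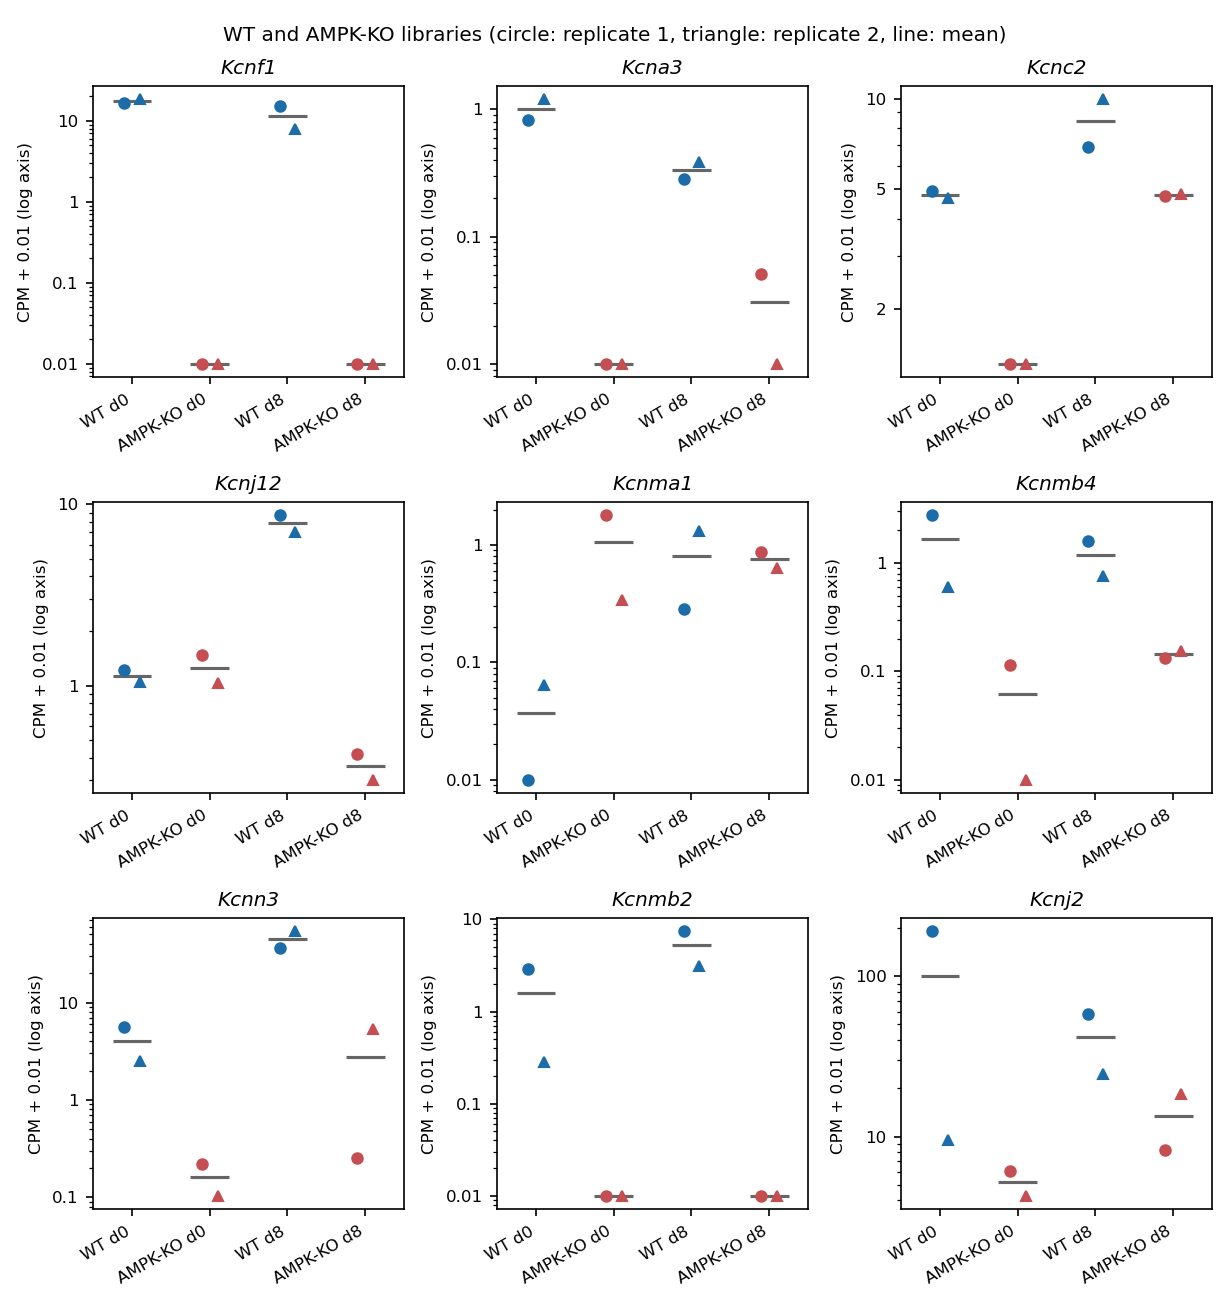
CPM + 0.01 on log axes for 9 potassium channel genes in the WT (blue) and AMPK-KO (red) libraries at d0 and d8, with circles for replicate 1, triangles for replicate 2 and lines for group means. *Kcnf1* and *Kcnmb2* sit on the bottom of their panels (0 counts) in all 4 AMPK-KO libraries, *Kcnj12* separates the genotypes at d8 alone, and WT d0 replicate 1 lies far above its partner in *Kcnj2*.

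The second comparison asked the same at d8. *Kcnf1* and *Kcnj12*, a Kir2 inward rectifier of the sarcolemma, were lower in AMPK-KO cells. They were among 4 of 27 tested members lower and 0 higher (edgeR, adjusted p under 0.05), where 3.98% of all genes were lower and 1.36% were higher. The count minimum favours 2 of the 4, *Kcnf1* among them, and 2 members remain without these. Of the 19 members it does not favour, 6 were lower and 2 were higher at an unadjusted p under 0.05, beside 1855 and 1411 of all genes. The median log2 fold change was −0.53 over these 19 and −1.37 over the 27, beside 0.039 over all genes.

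*Kcnj12* (chr11:61022564-61071131, plus strand) stood at 8.70 and 7.04 CPM in WT and 0.408 and 0.291 CPM in AMPK-KO cells at d8. The genotypes were far apart, with a log2 fold change of −4.46 (SE 0.436, edgeR adjusted p = 0.00472), whereas at d0 the values were 1.21 and 1.03 CPM in WT and 1.47 and 1.03 CPM in AMPK-KO cells and overlapped.

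*Kcnn3*, a small-conductance channel, gave 666 and 1150 counts in the WT d8 libraries against 6 and 109 without AMPK. *Kcnmb2*, the β subunit that inactivates large-conductance channels, had 135 and 66 counts against 0 and 0, at least 39.3-fold lower. The genotypes did not overlap in either gene, and neither was called in the edgeR fit without a replicate block. With the block *Kcnmb2* was called, and DESeq2 called both. Both genes are favoured by the count minimum, so these calls are no test of them. *Kcnk5*, a 2-pore channel that the minimum does not favour, stood at 5.18 and 5.58 CPM in WT against 1.43 and 2.43 CPM (log2 change −1.48, edgeR adjusted p = 0.0622). With a replicate block it was called (−1.52, edgeR adjusted p = 0.0324), and DESeq2 called it too. *Kcnn4* stood at 45.8 and 22.6 CPM in WT and 92.8 and 50.2 CPM in AMPK-KO cells (log2 change 1.07, SE 0.40, edgeR adjusted p = 0.174), the 2 groups lying close together at 45.8 and 50.2 CPM.

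The 2 AMPK-KO d8 libraries differed in their myotube markers, and the potassium channel genes can be read in each. In AMPK-KO d8 replicate 2, whose 7 myotube genes summed to 9913 CPM, *Kcnf1* had 0 counts, *Kcnj12* had 6 and *Kcnn3* had 109. In AMPK-KO d8 replicate 1, with 1728 CPM of the same markers, these genes had 0, 10 and 6 counts. *Kcnn3* stood at 5.30 CPM in the library with more myotube RNA and at 36.7 and 54.0 CPM in the WT d8 libraries. *Kcnj12* and *Kcnf1* were not higher in AMPK-KO d8 replicate 2 than in replicate 1. Other members went both ways from replicate 1 to replicate 2. *Kcnj2* went from 202 to 379 counts, *Kcnc1* from 1 to 6 and *Kcnk13* from 1 to 9, whereas *Kcnh1* went from 32 to 6 and *Kcnj15* from 170 to 8. The part of myotube RNA in these values was not tested.

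Calls at d8 held in part when libraries were left out. *Kcnj12* was called in all 14 alternative fits. Leaving out either WT d8 library left 2 members called, *Kcnj12* among them, while the genes called lower over the whole table went from 571 to 99 without replicate 1 and to 100 without replicate 2.

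From d0 to d8, WT cells gained *Kcnj12*, *Kcnc1* (a fast Shaw-family channel) and *Kcnn1* (a small-conductance channel), among others. In all, 5 of 27 tested members were higher and 0 lower (edgeR, adjusted p under 0.05), where 5.78% of all genes were higher and 6.58% were lower. The count minimum favours 2 of the 5, *Kcnc1* among them, and 3 members remain without these. It favours 5 of the 27 in one day or the other. Of the remaining 22, 7 were higher and 3 were lower at an unadjusted p under 0.05, beside 2164 and 2292 of all genes, and the median log2 fold change was 0.37 over these 22 and 0.013 over all genes.

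*Kcnj12* rose from 1.21 and 1.03 CPM to 8.70 and 7.04 CPM (log2 change 2.81, SE 0.393, edgeR adjusted p = 0.0143). The days did not overlap. *Kcnn1* went from 4.82 and 1.95 CPM to 10.7 and 11.1 CPM (adjusted p = 0.0467), and *Kcnc1* from 1 and 1 counts to 17 and 28 counts (ratio 22.3, 95% counting interval 5.83 to 190). Without WT d0 replicate 1, the change of *Kcnn1* was 2.46 in place of 1.68 on the log2 scale. Without WT d0 replicate 2 it was 1.19 (edgeR adjusted p = 0.128), and *Kcnn1* was called in 6 of 14 alternative fits. *Kcnn3* went from 5.55 and 2.49 CPM to 36.7 and 54.0 CPM (edgeR adjusted p = 0.0748) and *Kcnk13*, a 2-pore channel, from 0 and 1 counts to 23 and 29 counts. *Kcnn4* lay at 69.1 and 68.7 CPM at d0 and at 45.8 and 22.6 CPM at d8 (edgeR adjusted p = 0.137). A replicate block gave 8 called members in place of 5, among them *Kcnn4* (−1.11, edgeR adjusted p = 0.037) and *Kcnk2* (−1.21, adjusted p = 0.0327). The block also called *Kcnk13*, which the count minimum favours. Over all genes it called 1135 higher and 1225 lower, against 828 and 943 without it. The WT counts fell to 0 members when WT d0 replicate 2, WT d8 replicate 1 or WT d8 replicate 2 was left out, fits in which no more than 2 genes of the whole table were called.

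In AMPK-KO cells the change from d0 to d8 involved other values. *Kcnc2* and *Kcnh1* rose and *Kcnj12*, *Kcnk5* and *Kcnk2* fell, that is 2 of 27 members higher and 3 lower (edgeR, adjusted p under 0.05), where 4.81% of all genes were higher and 4.95% were lower. At an unadjusted p under 0.05, 7 were higher and 3 were lower, beside 2108 and 1964 of all genes. The median log2 fold change was 0.64, beside 0.021 over all genes. It was 0.58 with 3 genes at 0 at d0 set to their bounds and 3 others (*Kcna3*, *Kcnf1* and *Kcnmb2*) left out for want of counts at both days.

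*Kcnc2* rose from 1.31 and 1.31 CPM to 4.73 and 4.81 CPM (log2 change 1.86, SE 0.317, edgeR adjusted p = 0.0227), the level WT cells had at d0. At d8 WT cells stood at 6.89 and 9.95 CPM, above both AMPK-KO d8 libraries (edgeR adjusted p = 0.162). *Kcnh1*, an ether-à-go-go channel known from myoblasts before fusion, went from 0 and 0 counts to 32 and 6 counts, at least 5.37-fold higher (edgeR adjusted p = 0.0457, and 0.0645 with a replicate block). *Kcnh1* (chr1:192190774-192510159) overlaps the antisense gene *Hhat*, which reached 663 counts, over 13449 bases. Without knowledge of strand, reads within that overlap cannot be told apart. *Kcnj12* fell from 1.47 and 1.03 CPM to 0.408 and 0.291 CPM (−1.81, SE 0.425, edgeR adjusted p = 0.0426). The 2-pore channels *Kcnk5* and *Kcnk2* (acid- and stretch-sensitive background channels) fell by 1.49 and 1.49 on the log2 scale (edgeR adjusted p = 0.0448 and 0.0476). In WT cells their changes were −0.99 and −1.26, with edgeR adjusted p-values of 0.102 and 0.0674. The change of *Kcnk2* in WT cells was −1.62 without WT d0 replicate 1 and −0.79 without WT d0 replicate 2. Leaving out either AMPK-KO d0 library left 0 members called, in fits that called no more than 1 gene of the whole table, and in a fit of the 4 AMPK-KO libraries alone *Kcnc2* was the only member called.

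*Kcnj12* thus rose in WT cells and fell in AMPK-KO cells. The difference between these changes was −4.61 on the log2 scale (SE 0.576), with an unadjusted p of 7.61e-05 and an edgeR adjusted p of 0.545. No member and 0% of all 14329 genes passed this test in either direction, 424 and 305 genes being higher and lower at an unadjusted p under 0.05. DESeq2 called *Kcnj12* alone among the members (adjusted p = 5.38e-05) and, over the table, 23 genes higher and 31 lower.

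**Figure D4:**
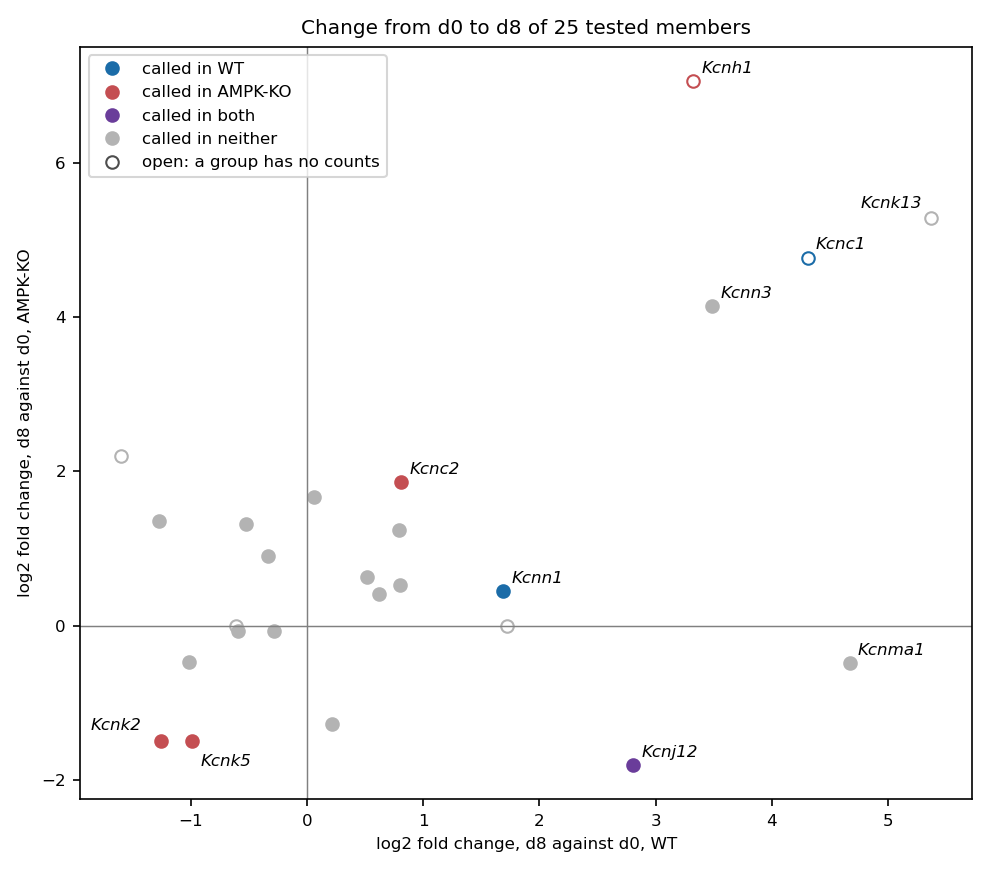
Log2 fold change from d0 to d8 in WT cells (x axis) and AMPK-KO cells (y axis) for 25 of the 27 tested potassium channel genes, coloured by whether each change passed the threshold. Open points have a group with no counts and their fitted values are no measure of size. *Kcnj12* lies at 2.81 in WT and −1.81 in AMPK-KO cells, the only gene shown that was called in both.

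Other ion transport genes, 38 in a list of channel partners, pacemaker channels, sodium, calcium and chloride channels, sodium-potassium pump subunits and potassium-chloride transporters, give a measure of what surrounded the potassium channels. Of the 23 tested, 0 were called in edgeR between AMPK-KO and WT cells, at d0 or at d8 in either direction. Of all genes, 2.83% were lower and 0.698% higher at d0, and 3.98% lower and 1.36% higher at d8. At an unadjusted p under 0.05, 0 of the 23 were higher and 4 lower at d0, beside 1151 and 1844 of all genes. At d8, 1 was higher and 4 were lower, beside 1411 and 1855. DESeq2 called 4 and 3 of the 23, all lower in AMPK-KO cells, where it called 1007 and 1101 of all 14329 genes lower. From d0 to d8, 8 rose in WT cells, where 5.78% of all genes rose. In AMPK-KO cells 5 rose and 1 fell, beside 4.81% and 4.95% of all genes. *Cacna1s*, the voltage sensor of excitation-contraction coupling, went from 43 and 33 counts to 2084 and 3774 counts in WT cells and from 1 and 0 counts to 552 and 2885 counts in AMPK-KO cells. *Scn4a*, the adult muscle sodium channel, gave 424 and 697 counts in the WT d8 libraries against 13 and 238 without AMPK. In AMPK-KO d8 replicate 2 the CPM of *Cacna1s* lay between those of the WT d8 libraries. *Abcc8* and *Abcc9*, the regulatory subunits of ATP-sensitive channels, reached 17 and 10 counts at most in the first experiment.

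The second experiment asked whether potassium channel genes differ when TET2 mimics its phosphorylated form in cells without AMPK. *Kcnab1*, a β subunit of Shaker channels, was higher in TET2-S97E cells, the only one of 18 tested members to pass in either direction (edgeR, adjusted p under 0.05), where 3.71% of all 13433 genes were higher and 3.28% were lower. At an unadjusted p under 0.05, 5 members were higher and 3 were lower, beside 1654 and 1498 of all genes. *Kcnab1* (chr3:65109384-65378223, plus strand) stood at 0.769 and 0.870 CPM in TET2-WT clone 1 and 1.19 and 1.43 CPM in clone 2. In TET2-S97E cells it stood at 8.52 and 7.09 CPM in clone 1 and 4.04 and 4.02 CPM in clone 2. All 4 TET2-S97E libraries lay above all 4 TET2-WT libraries, with a log2 fold change of 2.47 (SE 0.356, edgeR adjusted p = 0.0077). The share of mitochondrial counts was 1.00% to 2.14% in TET2-WT and 2.03% to 2.29% in TET2-S97E libraries, and its part in the difference was not tested. With the libraries of each clone summed, which leaves 2 clones against 2, edgeR gave 2.42 with an adjusted p of 0.305, and no gene of the table was called. With clone as a random effect in limma-voom it was 2.40 (adjusted p = 0.0339), and without TET2-WT clone 1 edgeR gave 2.17 (adjusted p = 0.0687). In the first experiment *Kcnab1* stood at 0.868 and 0.434 CPM in WT and 4.55 and 1.59 CPM in AMPK-KO cells at d0, with an edgeR adjusted p of 0.162.

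*Kcnf1* and *Kcna3*, which were lower in AMPK-KO cells at d0, were near 0 in TET2-S97E cells, with 0, 1, 0 and 0 counts of *Kcnf1* and 0 of *Kcna3* in all 4 libraries. *Kcnj12*, whose d0 values overlapped between WT and AMPK-KO cells, had 3 to 9 counts. None of the 3 genes was tested after the filter on low counts. In TET2-S97E clone 1 replicate 1, where the 7 myotube genes summed to 4999 CPM, *Kcnf1* and *Kcnn3* had 0 counts. The part of myotube RNA in these counts was not tested. *Kcnh1* had 0 or 1 counts in TET2-WT and 24, 31, 5 and 4 counts in TET2-S97E libraries, a ratio of 34.8 (95% counting interval 9.26 to 294).

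Other members shifted in value without passing. *Kcnd1*, a channel of the transient outward current, stood at 1.28 to 3.60 CPM in TET2-WT and 4.59 to 7.16 CPM in TET2-S97E cells (log2 change 1.14, SE 0.327, edgeR adjusted p = 0.068). *Kcnab3*, another Shaker β subunit, stood at 13.0 to 16.3 CPM against 6.46 to 10.9 CPM (−0.69, SE 0.199, edgeR adjusted p = 0.068). The genotypes did not overlap in either gene. *Kcnj2* stood at 11.1 to 23.8 CPM against 17.3 to 56.8 CPM, with overlap (1.11, SE 0.346, edgeR adjusted p = 0.0872). The median log2 fold change of the 18 members was −0.031, beside 0.011 over all genes. Of the ion transport genes, 21 were tested, of which 5 were higher and 0 lower in TET2-S97E cells, beside 3.71% and 3.28% of all genes, among them *Cacna1s*, *Cacnb1*, *Atp1b3* and *Slc12a2*.

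Several members differed between clones of the same genotype. Between the TET2-WT clones, *Kcnj15* and *Kcnab2* were higher and *Kcnj16* was lower in clone 2, that is 2 and 1 of 20 tested members (edgeR, adjusted p under 0.05), where 0.463% of all 14459 genes were higher and 0.394% were lower. Between the TET2-S97E clones, *Kcnj16*, *Kcnab2*, *Kcnk12*, *Kcne4* and *Kcnc2* were higher and *Kcnma1* and *Kcnj15* were lower in clone 2, that is 5 and 2 of 20 members, where 3.35% of all genes were higher and 2.82% were lower. Clone numbers do not match across genotypes, and a direction from clone 1 to clone 2 has no meaning beyond its pair.

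*Kcnj16*, an inward rectifier subunit that pairs with other Kir channels, ranged widely over the clones. Its level was 13.7 and 11.0 CPM in TET2-WT clone 1 and 0.458 and 1.03 CPM in clone 2, a log2 fold change of −4.01 (SE 0.417, edgeR adjusted p = 0.00783). In TET2-S97E clone 1 it stood at 0.404 and 0.195 CPM and in clone 2 at 35.5 and 60.0 CPM, a change of 7.39 (SE 0.491, edgeR adjusted p = 0.00017). Each genotype thus held a clone with high and a clone with low *Kcnj16*. *Kcnj2* begins 38.2 kb after the end of *Kcnj16* on chromosome 11, the closest pair among the members. Its level was highest in TET2-S97E clone 2, at 38.0 and 56.8 CPM. TET2-WT clone 1, the other clone with high *Kcnj16*, had the lowest mean of *Kcnj2*, at 13.4 CPM, against 20.1 CPM in TET2-WT clone 2 and 24.9 CPM in TET2-S97E clone 1.

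*Kcnab2*, one more Shaker β subunit, stood at 2.35 and 2.06 CPM in TET2-WT clone 1 and 15.8 and 23.1 CPM in clone 2 (log2 change 3.13, SE 0.457, edgeR adjusted p = 0.0225). It was nearly lost in TET2-S97E clone 1, with 0 and 7 counts, against 60 and 121 counts in clone 2 (4.67, SE 0.629, edgeR adjusted p = 0.00308). *Kcnj15*, an inward rectifier, had 25 and 57 counts in TET2-WT clone 1 but 197 and 462 in clone 2, whereas TET2-S97E clone 1 had 46 and 58 and clone 2 had 7 and 18. *Kcnma1* stood at 3.48 and 2.60 CPM in TET2-S97E clone 1 and at 0.353 to 0.595 CPM in the other 6 libraries. *Kcnk12*, a 2-pore subunit, was low in TET2-S97E clone 1 alone, with 0.151 and 0.195 CPM against 1.10 to 2.69 CPM elsewhere. *Kcnn4*, in contrast, varied by 1.53-fold between the lowest and highest clone mean. The count for the TET2-WT clones was 0 when either library of clone 1 was left out, in fits that called no more than 2 genes of the whole table, and *Kcnj16* and *Kcnab2* were called in all 13 alternative fits for the TET2-S97E clones.

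**Figure D5:**
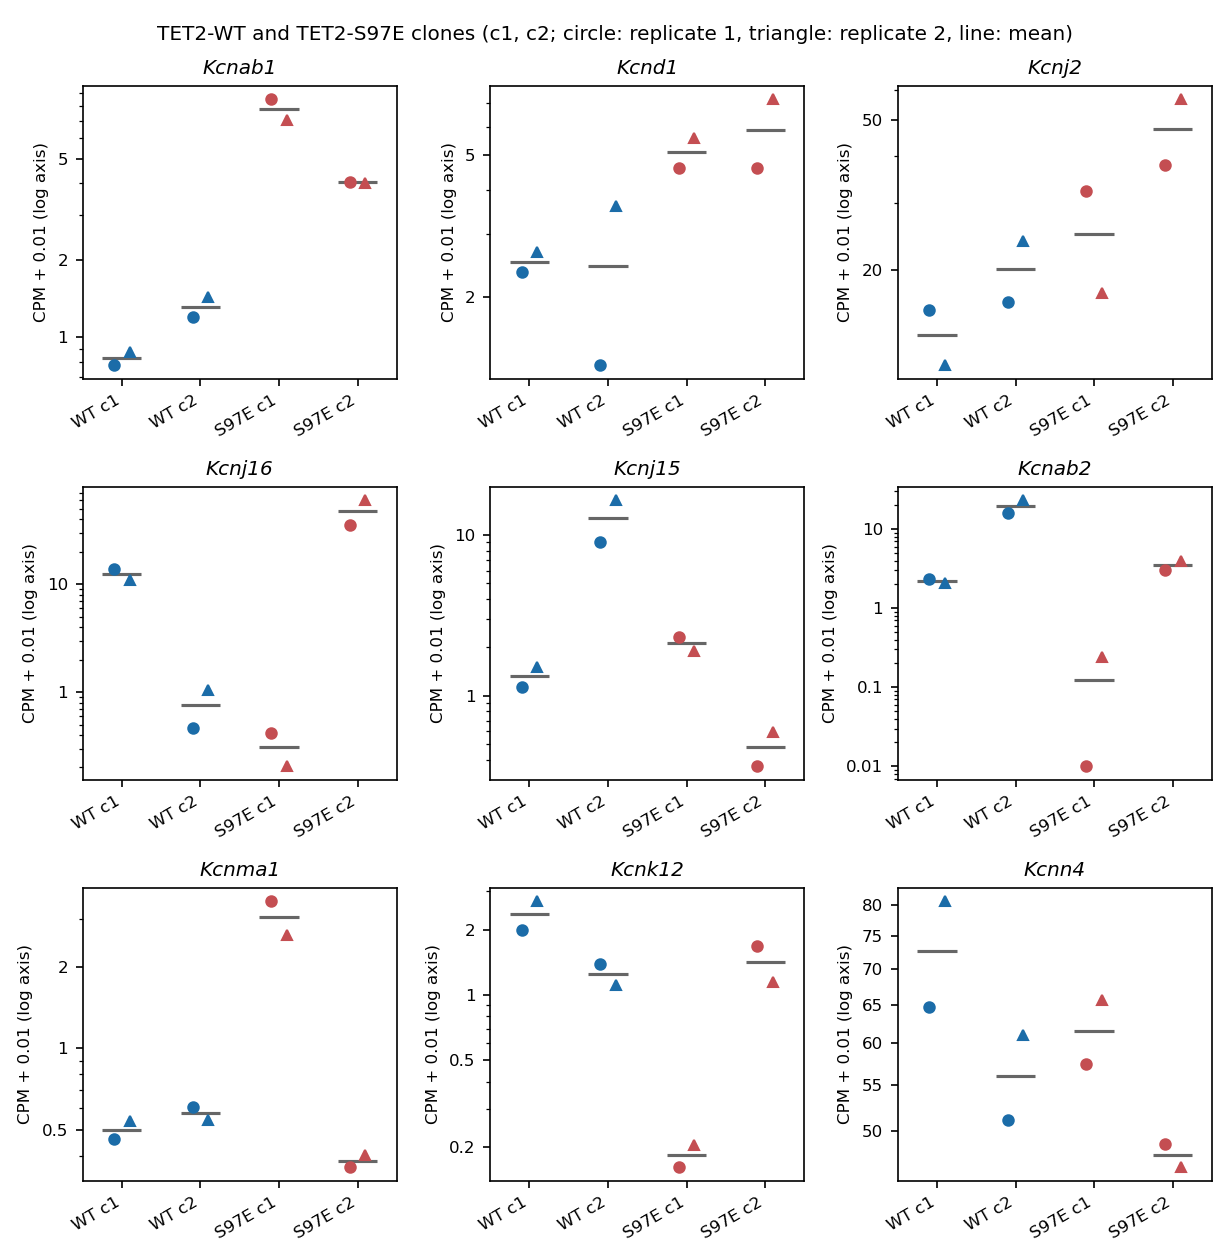
CPM + 0.01 on log axes for 9 potassium channel genes in the 2 TET2-WT (blue) and 2 TET2-S97E (red) clones, with circles for replicate 1, triangles for replicate 2 and lines for clone means. *Kcnab1* is higher in both TET2-S97E clones, whereas *Kcnj16*, *Kcnj15*, *Kcnab2*, *Kcnma1* and *Kcnk12* set clones of the same genotype apart.

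Depth differed among the members. *Kcnh2*, *Kcnd1*, *Kcnk2*, *Kcnk5*, *Kcnab3*, *Kcnn1*, *Kcnc2*, *Kcnj2* and *Kcnn4* had at least 10 counts in every library. *Kcnip4*, an interacting protein of transient outward channels, never exceeded 23 counts and lies over the antisense gene *5730480H06Rik*, which reached 507 counts. *Kcnh3*, which stood at 0 to 0.434 CPM in the first experiment and at 0.0505 to 2.14 CPM in the TET2 libraries, touches the antisense gene *Mcrs1* by 1 base. *Kcnq1* had 17 counts at most and overlaps the antisense RNA *Kcnq1ot1*, which reached 76 counts. *Kcne4*, a small subunit of voltage-gated channels, had 36 and 56 counts in TET2-S97E clone 2 and 7 counts at most in the other TET2 libraries.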

How the data were processed

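The authors trimmed paired-end reads of total RNA with Trim Galore 0.4.5, aligned them to GRCm38 with STAR 2.5.3a and counted them per gene with featureCounts 1.5.3 on GENCODE M12. Whether counting used strand is not given in the sources used here. The deposited values were whole-number counts per gene without normalization, 1 table for each experiment. Symbols and exon lengths came from GENCODE M21, in which 49326 of 49585 identifiers were found.

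Differences were tested by edgeR 4.0.16 under R 4.3.3 (TMM scaling, filterByExpr, then glmQLFit and glmQLFTest, p-values adjusted by Benjamini-Hochberg over all genes tested). The first table entered 1 model of 4 groups, the TET2 table a genotype model and a model of 4 clones. Alternatives were DESeq2 1.42.0, limma-voom (limma 3.58.1), other filters, a replicate block and left-out libraries or clones. Deviations of same-numbered libraries from their group means correlated across genes at 0.129 to 0.392 in all 6 pairs of groups of the first experiment. Calls that change with the block are therefore named there, with block values for members that the count minimum does not favour. The labels do not say what a number marks.

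The members and lists were chosen with earlier results of these data known. Named genes were called members (at most 10 for each comparison of genotypes and direction, 3 for each other one), the 5 highest per kilobase in WT d0, a list of muscle channels, and any others described, which were chosen after their values were seen. Some genes are counted among the totals but not reported here.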

Additional observations from a re-analysis of the deposited data

Results flagged for a closer look

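*Kcnh2*, a voltage-gated channel, stood at 25.2 CPM in TET2-WT clone 2 replicate 2, far from the other 3 TET2-WT libraries at 13.2 to 15.2 CPM. *Kcnk2* stood at 13.5 CPM in TET2-S97E clone 2 replicate 1, far from the other 3 TET2-S97E libraries at 7.38 to 8.32 CPM. These were 2 of 38 sets of 4 libraries examined for a library apart from the rest, and chance gives about 1 in 20.

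*Kcnj12* rose from d0 to d8 in both WT libraries and fell in both AMPK-KO libraries, a difference of −4.61 on the log2 scale with an edgeR adjusted p of 0.545. Over the alternatives this difference ran from −4.36 to −4.84, with adjusted p-values from 1.72e-06 without a filter on low counts to 1.00 without WT d8 replicate 2.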

How the results depend on the processing

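Counts of potassium channel genes called moved with the processing, and the cause was not tested. They include genes that the count minimum favours. In DESeq2 *Kcna3*, *Kcnf1*, *Kcnmb2*, *Kcnmb4* and *Kcnn3* were such genes at d0, and *Kcnf1*, *Kcnmb2* and *Kcnn3* were among them at d8. The DESeq2 Wald test called 10 (edgeR 3) at d0 and 7 (4) at d8 between AMPK-KO and WT cells, 9 (5) from d0 to d8 in WT cells, 1 (0) for the difference of these changes and 6 (1) between TET2-S97E and TET2-WT cells. Without a filter on low counts edgeR called 13 at d0 and 13 at d8, 13 in WT and 10 (5) in AMPK-KO differentiation, 3 for the difference, 2 for TET2-S97E and 12 (7) between the TET2-S97E clones. For the difference, 181 of all genes were lower and 268 higher without the filter. The 4 AMPK-KO libraries alone gave 1 from d0 to d8, where 412 of all genes were lower and 376 higher. Between TET2-S97E and TET2-WT cells, 0 were called with counts summed per clone and 0 without TET2-WT clone 1. Without TET2-S97E clone 1 there were 4, and without TET2-S97E clone 2 there were 6. Of all genes, 0 were called with counts summed, and 83 were lower and 100 higher without TET2-WT clone 1. The same counts were 316 and 484 without TET2-S97E clone 1 and 499 and 687 without TET2-S97E clone 2. Of 384 repeats of the 28 called gene results, 275 passed the threshold, 109 kept the direction without passing and 0 reversed. Counts of all genes moved as well, given here as lower and higher. At d0, 405 and 100 became 1007 and 371 in DESeq2 and 1453 and 573 without the filter. At d8, 571 and 195 became 1101 and 555 in DESeq2 and 1670 and 833 without the filter. In WT differentiation, 943 and 828 became 1357 and 1397 in DESeq2 and 1477 and 1816 without the filter. For TET2-S97E, 440 and 498 became 844 and 981 in DESeq2 and 470 and 624 without the filter. Between the TET2-WT clones, 57 and 67 became 379 and 492 in DESeq2 and 526 and 1101 without the filter. AMPK-KO differentiation went from 709 and 689 to 1322 and 1717 without the filter. The TET2-S97E clones went from 408 and 484 to 853 and 827 without it.

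With 1 library left out, which leaves a group with 1 library that is assumed to vary like the others, members called ranged from 0 to 5 at d0, 2 to 6 at d8, 0 to 7 in WT and 0 to 3 in AMPK-KO differentiation, 0 to 0 for the difference, 1 to 2 for TET2-S97E, 0 to 3 between TET2-WT clones and 3 to 7 between TET2-S97E clones. A replicate block gave 8 (5) in WT differentiation and 2 (1) for TET2-S97E, and 4, 6, 4 and 0 at d0, at d8, in AMPK-KO differentiation and for the difference, and 3 and 8 between the clones. Deviations of same-numbered libraries of the first experiment correlated at 0.129 to 0.392, and whether the numbers pair libraries is not stated. In that experiment the block changed the calls of *Kcnk5* at d8, *Kcnk2* and *Kcnn4* in WT and *Kcnh1* in AMPK-KO differentiation. It also added 3 genes that the count minimum favours, *Kcnmb4* at d0, *Kcnmb2* at d8 and *Kcnk13* in WT differentiation, and changed no other call. Same-numbered TET2 libraries correlated at −0.073 to 0.555, and what their numbers mark is not stated either. There the block added *Kcnd1* for TET2-S97E and *Kcnh1* between the TET2-S97E clones. Depth limits members with few counts, whose folds are bounds or have wide counting intervals, and some of the called genes are favoured by the count minimum.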

Other observations

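Replicate numbers of the first experiment moved with some potassium channel genes. *Kcnj15* had 12, 58, 25 and 170 counts in replicate 1 and 5, 2, 3 and 8 counts in replicate 2 of WT d0, AMPK-KO d0, WT d8 and AMPK-KO d8. *Kcnab2* had 16, 27, 14 and 14 counts against 2, 1, 6 and 0. Replicate 1 was higher in all 4 groups for 5 of 27 tested members (*Kcnab1*, *Kcnab2*, *Kcnj12*, *Kcnj15* and *Kcnn4*) and 12.7% of all tested genes, and lower in all 4 for 4 members (*Kcnab3*, *Kcnd1*, *Kcnk2* and *Kcnk5*) and 13.4% of all tested genes.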
